A study of Mus musculus with 6 samples.

Results

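The 5 NF-kB subunit genes, 4 genes that restrain or steer NF-kB and the gene of the cytokine TNF were examined in mice with chemically induced colitis. The set holds Nfkb1, Nfkb2, Rela, Relb, Rel, Nfkbia, Nfkbie, Nfkbiz, Tnfaip3 and Tnf. They were picked out by symbol, with no threshold on their measured values but with earlier results of these data known, and make up 10 of the 18268 genes in the expression table. A gene was tested where it reached at least 1 FPKM, a unit that corrects for transcript length and library size, in at least 3 mice. All 10 passed this filter, as did 12072 genes in total.

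RNA sequencing compared 3 colitis mice receiving berberine (BBR), a plant alkaloid, with 3 colitis mice receiving sulfasalazine (SASP), an aminosalicylate drug used against colitis, to ask which transcripts differ between the drugs. All 6 were adult male C57BL/6 mice. Colitis was induced in all of them with dextran sulfate sodium (DSS), a polysaccharide that damages the epithelium of the large bowel, in the drinking water for 7 days, and each received its drug by gavage for 6 days. Each library came from whole colorectal tissue of 1 mouse. Mice without colitis, and mice with colitis but no drug, were not analysed here. Every difference is therefore between the drugs, and the distance of either group from untreated colitis was not measured.

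NF-kB is a family of dimeric transcription factors that drive inflammatory, survival and immune genes. In resting cells the dimers are held back by IkB proteins. Signals from TNF receptors, Toll-like receptors and interleukin receptors activate the IKK kinases, which mark IkB proteins for destruction, and the freed dimers induce, among others, Tnf itself and the genes of their own inhibitors. A slower branch processes the Nfkb2 product to release dimers with Relb. In the gut lining and the immune cells beneath it this pathway is active in colitis. Transcript levels report how much RNA of each gene was present, and the activity of the proteins was not measured.

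NF-kB genes are known to be regulated by NF-kB itself, so promoter sequences were read for its binding motif. Windows of 300 bases, 250 before and 50 from the transcription start on, were taken from RefSeq (GRCm38.p6) and searched on both strands for the consensus kB motif, a sequence of 10 bases that NF-kB dimers bind. Of the 10 genes, 7 had a window, and Nfkb1, Relb and Nfkbiz had none. A match lay in windows of 5 of these 7 genes, namely Nfkb2, Rel, Nfkbia, Nfkbie and Tnfaip3, whereas Rela and Tnf had no match in their windows. Of all 32851 windows 8.46% held a match, and of tested genes with a window 12.3% did. The stretches below run 5′ to 3′ on the coding strand, and capitals mark bases within a kB match, with overlapping matches on either strand merged. Shown are the 5 genes with a match and, for comparison, Tnf, which of the 10 genes had the largest difference between the drugs.
Nfkb2: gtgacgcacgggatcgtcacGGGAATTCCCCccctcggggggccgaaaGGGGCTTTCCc
Rel: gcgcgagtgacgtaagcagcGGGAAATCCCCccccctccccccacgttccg
Nfkbia: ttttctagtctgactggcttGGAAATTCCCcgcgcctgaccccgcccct
Nfkbie: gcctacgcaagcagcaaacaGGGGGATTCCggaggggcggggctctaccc
Tnfaip3: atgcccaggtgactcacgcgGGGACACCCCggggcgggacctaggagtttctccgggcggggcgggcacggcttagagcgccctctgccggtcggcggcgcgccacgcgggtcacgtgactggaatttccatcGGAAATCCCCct
Tnf: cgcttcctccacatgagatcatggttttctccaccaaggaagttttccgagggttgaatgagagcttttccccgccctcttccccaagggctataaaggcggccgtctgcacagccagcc
On GRCm38.p6 these stretches are chr19:46304678-46304736 on the plus strand for Nfkb2, chr11:23771031-23771081 on the minus strand for Rel, chr12:55492648-55492696 on the minus strand for Nfkbia, chr17:45555574-45555623 on the plus strand for Nfkbie, chr10:19015411-19015555 on the minus strand for Tnfaip3 and chr17:35202008-35202127 on the minus strand for Tnf. All 6 lie before the annotated transcription start of their gene. Counted from the start, with -1 for the base just before it, they end at -1 in Nfkb2, Nfkbia, Tnfaip3 and Tnf, at -62 in Rel and at -77 in Nfkbie. Nfkb2 has 3 annotated windows, all with a match, and the stretch shown lies before the first start. The stretches of Nfkb2 and Tnfaip3 each hold matches at 2 separate places. A match is a description of letters, and its absence from this window of Tnf says nothing about sites elsewhere.

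Estimated depth lay between 16400000 and 16800000 reads in BBR mice and between 16800000 and 18200000 in SASP mice. This approximation rests, in each library, on 31 to 56 genes with short transcripts that were above 0 in no other library. The value of each was assumed to be a single read, and the median of the depths so obtained was used. BBR mouse 3 stood apart. Across tested genes its log2(FPKM + 1) values correlated with those of BBR mice 1 and 2 at 0.953 and 0.949, against 0.987 between these mice and 0.982 to 0.989 among SASP mice. Values without BBR mouse 3 are therefore given beside those of each of the 10 genes. Epithelial markers, summed over 12 genes, reached 9689 to 12080 FPKM in BBR and 9721 to 9955 FPKM in SASP mice, and smooth muscle markers, also summed over 12 genes, reached 3296 to 7634 and 916 to 2729 FPKM. The labelled tissue thus held epithelium and muscle, with more muscle transcript in every BBR mouse than in any SASP mouse.

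Tnf was lower and Nfkb2 higher in colitis mice receiving BBR than in those receiving SASP, and the other 8 genes did not pass the test. Tnf, the gene of a cytokine that both activates NF-kB and is induced by it, was 8.73-fold lower on average (2.72 ± 3.13 against 23.8 ± 9.26 FPKM; SD, n = 3 each). Nfkb2, whose product p100 feeds the slower branch, was 1.37-fold higher (17.8 ± 0.852 against 13.1 ± 0.372 FPKM). Of the 10 genes 2 therefore differed at an adjusted p under 0.05 in limma, beside 8.86% of all tested genes (3.82% higher and 5.04% lower). The 3 BBR values lay wholly above the 3 SASP values for Nfkb2 and Rela and wholly below them for Nfkb1 and Tnf. That is 4 of 10 genes, beside 37.9% of all tested genes (21.3% above and 16.6% below). The median log2 fold change, BBR minus SASP, was -0.19 over the 10 genes and 0.10 over all tested genes. Both calls depended on single mice. Without BBR mouse 1, BBR mouse 2, SASP mouse 1 or SASP mouse 3, 0 of the 10 genes passed in limma, beside 1.10%, 3.11%, 1.05% and 0.795% of all tested genes. At an unadjusted p under 0.05, 4, 3, 2 and 2 of the 10 passed in these fits, beside 26.3%, 24.1%, 20.4% and 22.3% of all tested genes. Without SASP mouse 2 only Tnf passed the adjusted threshold, beside 4.32%. With array quality weights 7 of 10 passed, beside 59.0%. The weights were 5.32, 0.589 and 0.129 in BBR mice 1, 2 and 3 and 0.686, 0.746 and 4.85 in SASP mice 1, 2 and 3. That fit thus rests mostly on BBR mouse 1 and SASP mouse 3.

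**Figure D1:**
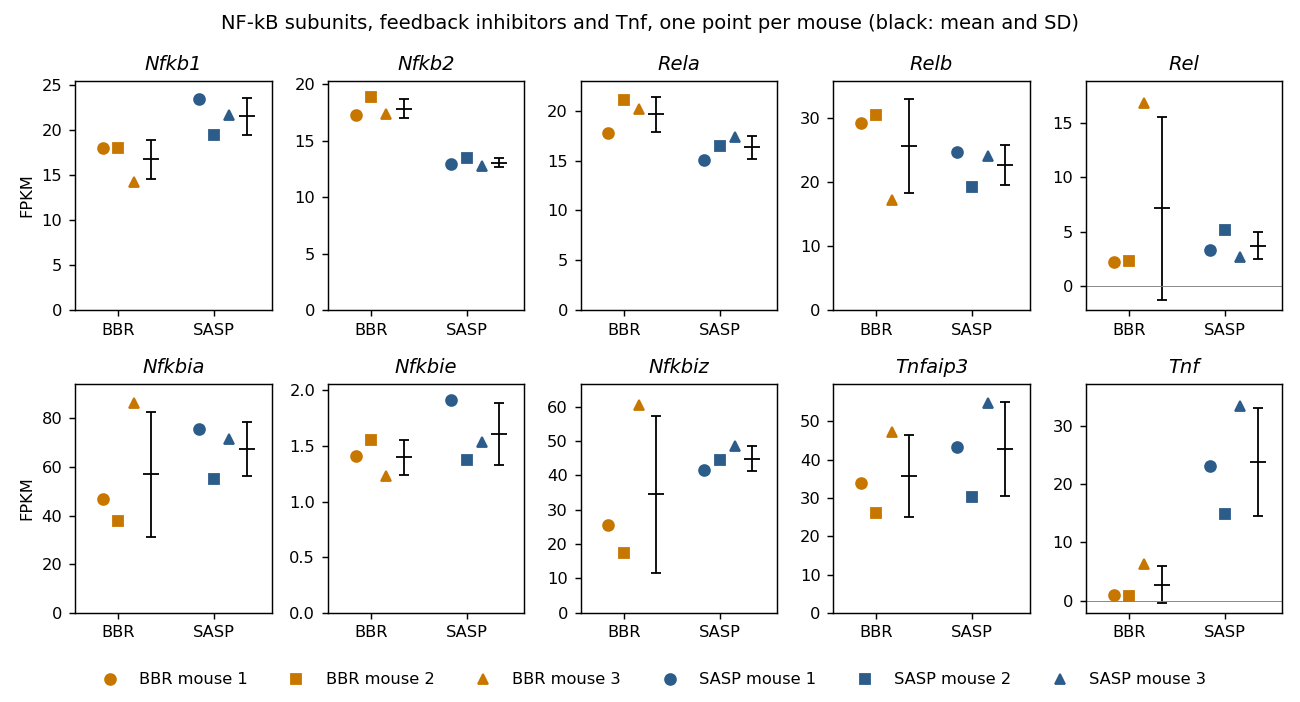
FPKM (vertical axes, each starting at or just below 0) of the 10 genes in each BBR and SASP mouse, with a marker shape for each mouse and black bars for the mean and SD of each group of 3. Tnf is low in BBR mice 1 and 2 and higher in all SASP mice, Nfkb2 and Rela are higher in all BBR mice, and BBR mouse 3 (triangle) lies far above BBR mice 1 and 2 in Rel, Nfkbia, Nfkbiz and Tnf.

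Among the subunits, Nfkb1 (Gene ID 18033) encodes p105, the precursor of the p50 subunit. Its level was 17.95, 18.00 and 14.20 FPKM in BBR mice 1, 2 and 3 and 23.43, 19.39 and 21.63 FPKM in SASP mice 1, 2 and 3. All BBR mice were below all SASP mice, with BBR mouse 3 the lowest. Its log2 fold change was -0.35 (95% interval -0.66 to -0.03), which did not pass the adjustment (limma adjusted p = 0.128). With median-ratio scaling between samples the adjusted p was 0.0481 and the change -0.48. That scaling moved the median of all tested genes from 0.10 to -0.02. With array quality weights, which rest mostly on BBR mouse 1 and SASP mouse 3, the change was -0.26 (adjusted p = 0.00942). It was -0.08 with the smooth muscle score and -0.07 with the pan-leukocyte score as a covariate (adjusted p = 0.808 and 0.864). The smooth muscle score was 7.10 to 8.23 in the BBR and 5.43 to 6.90 in the SASP mice, and the pan-leukocyte score 1.97 to 2.56 and 2.54 to 3.26. Both scores thus largely follow the drug, and these fits cannot separate them from it. Without BBR mouse 3 the change of Nfkb1 was -0.24 (adjusted p = 0.110).

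Nfkb2 (18034) encodes p100, which binds and holds back Relb until it is processed to p52. Nfkb2 was at 17.32, 18.83 and 17.39 FPKM in BBR mice 1, 2 and 3 and at 12.93, 13.48 and 12.77 FPKM in the SASP mice in the same order. The groups did not overlap, and the spread within each was the smallest of the 10 genes in relation to the mean (4.78% in BBR and 2.85% in SASP). On the log2 scale the change was 0.42 (SE 0.10, 95% interval 0.19 to 0.65, limma adjusted p = 0.0444). This call was close to the threshold: it was kept without BBR mouse 3 (0.44, adjusted p = 0.0140), and it was lost without any other single mouse (adjusted p = 0.0918 to 0.164), with median-ratio scaling (0.30, adjusted p = 0.0732), with no filter on low values (adjusted p = 0.0558) and with no variance trend (adjusted p = 0.0525). In GENCODE M21, exons of Nfkb2 share 299 bases with Psd, a gene on the opposite strand. Whether reads were assigned by strand is not given in the sources used here. Psd was at 10.26, 19.56 and 19.79 FPKM in the BBR and 4.73, 9.89 and 10.55 FPKM in the SASP mice. The mean difference in Nfkb2 between the groups was 4.79 FPKM as listed and 4.15 FPKM after subtracting from each mouse the share that Psd would add at even coverage. A long non-coding RNA, AC114539.1, also lies opposite over 531 exonic bases and has no row in the table.

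Rela (19697) encodes p65, the main activating partner of p50. It was at 17.73, 21.07 and 20.15 FPKM in the BBR and 15.11, 16.51 and 17.42 FPKM in the SASP mice. All BBR mice were above all SASP mice, by a narrow gap between BBR mouse 1 and SASP mouse 3. The log2 fold change was 0.25 (95% interval -0.02 to 0.52, limma adjusted p = 0.176), and in all 17 alternatives it stayed above 0 and did not pass. It was 0.23 without BBR mouse 3, and lowest, at 0.08, with array quality weights.

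Relb (19698), the partner of p52, was at 29.27, 30.52 and 17.25 FPKM in the BBR and 24.80, 19.18 and 24.16 FPKM in the SASP mice. BBR mice 1 and 2 were the highest of the 6 and BBR mouse 3 was the lowest, so the groups overlapped. Its log2 fold change was 0.14 (95% interval -0.40 to 0.67, limma adjusted p = 0.699), and without BBR mouse 3 it was 0.39 (0.09 to 0.69, adjusted p = 0.0560). Without any other single mouse it lay between -0.00425 and 0.20.

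Rel (19696) encodes c-Rel, a subunit used mainly by lymphoid and myeloid cells. Its level was 2.21, 2.30 and 16.89 FPKM in the BBR and 3.31, 5.12 and 2.71 FPKM in the SASP mice. BBR mouse 3 was 7.49-fold above the mean of the other BBR mice, which were the lowest of all 6. On the log2 scale the change was 0.32 with a wide interval of -1.22 to 1.85 (limma adjusted p = 0.758). Without BBR mouse 3 its sign turned, to -0.50 (-1.04 to 0.04, adjusted p = 0.125), and without any other single mouse it lay between 0.16 and 0.74.

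The make-up of the family was read from shares of the summed FPKM of the 5 subunits. The sum was 84.5, 90.7 and 85.9 FPKM in the BBR and 79.6, 73.7 and 78.7 FPKM in the SASP mice. Nfkb1 made up 21.2%, 19.8% and 16.5% of it in the BBR and 29.4%, 26.3% and 27.5% in the SASP mice, and the groups did not overlap. Nfkb2 made up 20.2% to 20.8% in the BBR and 16.2% to 18.3% in the SASP mice, again without overlap. Rel made up 2.62% and 2.54% in BBR mice 1 and 2, 19.7% in BBR mouse 3 and 3.44% to 6.95% in the SASP mice. Such shares are bound to each other, since a larger share of 1 subunit lowers the rest.

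**Figure D2:**
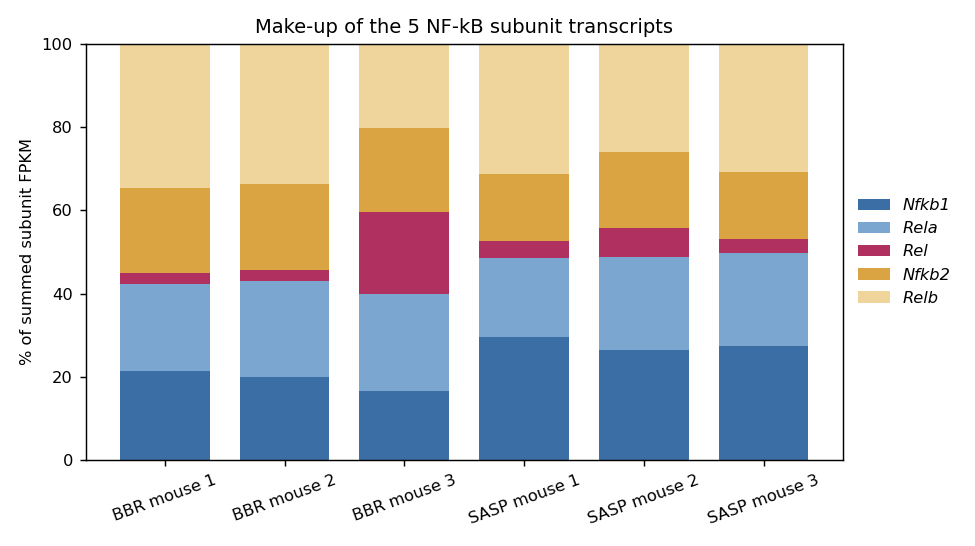
Share (%) of the summed FPKM of the 5 subunits taken by Nfkb1, Rela, Rel, Nfkb2 and Relb, as 1 stacked bar for each mouse. The Nfkb1 share is 16.5% to 21.2% in BBR and 26.3% to 29.4% in SASP mice, and the Rel share is 19.7% in BBR mouse 3 and at most 6.95% in the other mice.

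Ratios of genes within a mouse do not depend on library scaling. With 3 mice against 3, the smallest two-sided p of an exact permutation test is 0.10, so no ratio could pass 0.05. Nfkb1 over Rela was 1.01, 0.854 and 0.705 in the BBR and 1.55, 1.17 and 1.24 in the SASP mice, a log2 difference of -0.63 (exact p = 0.10, 0.20 adjusted over 6 ratios). The groups did not overlap. Nfkb2 over Rela was 0.977, 0.894 and 0.863 against 0.856, 0.816 and 0.733, a log2 difference of 0.19 (exact p = 0.10, adjusted 0.20), with a narrow gap between the groups. Relb over Rela (-0.12, exact p = 0.90), Rel over Rela (0.04, exact p = 1) and Nfkbia over Rela (-0.58, exact p = 0.30) overlapped between the groups, with adjusted p-values of 1, 1 and 0.45. With BBR mouse 3 left out, the log2 difference was -0.50 for Nfkb1, 0.22 for Nfkb2, 0.16 for Relb, -0.91 for Rel and -0.91 for Nfkbia, each over Rela.

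Of the inhibitors, Nfkbia (18035) encodes IkB alpha, an inhibitor that NF-kB induces quickly. It had the highest mean of the 10 genes, at 46.90, 37.89 and 86.14 FPKM in the BBR and 75.70, 54.81 and 71.46 FPKM in the SASP mice. BBR mice 1 and 2 were below all SASP mice and BBR mouse 3 was above them all. The log2 fold change was -0.31 (95% interval -1.01 to 0.39, limma adjusted p = 0.489). Without BBR mouse 3 it was -0.65 (-1.05 to -0.25) with an adjusted p of 0.0287, and without BBR mouse 2 it was -0.07 (adjusted p = 0.903).

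Nfkbiz (80859) encodes IkB zeta, a nuclear IkB protein that steers NF-kB at a subset of its targets and is prominent in barrier epithelium. It was at 25.67, 17.45 and 60.44 FPKM in the BBR and 41.53, 44.47 and 48.60 FPKM in the SASP mice. As for Nfkbia, BBR mice 1 and 2 were the lowest of the 6 and BBR mouse 3 the highest. Its log2 fold change was -0.56 (95% interval -1.50 to 0.39, limma adjusted p = 0.363), and without BBR mouse 3 it was -1.05 (-1.45 to -0.64, adjusted p = 0.00803). Without BBR mouse 2 it was -0.18 (adjusted p = 0.772).

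Tnfaip3 (21929) encodes A20, a ubiquitin-editing enzyme that shuts off signalling from TNF and Toll-like receptors. It was at 33.87, 26.12 and 47.37 FPKM in the BBR and 43.32, 30.35 and 54.71 FPKM in the SASP mice. The groups overlapped with and without BBR mouse 3. On the log2 scale the change was -0.25 (95% interval -0.89 to 0.39, limma adjusted p = 0.542), and without BBR mouse 3 it was -0.47 (-1.07 to 0.13, adjusted p = 0.178). It was -0.47 without SASP mouse 2 (adjusted p = 0.289), -0.05 without BBR mouse 2 (adjusted p = 0.922) and -0.06 without SASP mouse 3 (adjusted p = 0.911).

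Nfkbie (18037) encodes IkB epsilon, a slower inhibitor, and was the lowest of the 10 genes. It was at 1.41, 1.55 and 1.23 FPKM in the BBR and 1.91, 1.37 and 1.54 FPKM in the SASP mice, and the groups overlapped. The log2 fold change was -0.12 (95% interval -0.46 to 0.22, limma adjusted p = 0.592), and without BBR mouse 3 it was -0.07 (adjusted p = 0.743). At the estimated depth these values correspond to 61.9 to 102 reads. The log2(FPKM + 1) scale understates the change of such low values. With 0.01 added in place of 1 the change was -0.19 (SE 0.24, limma adjusted p = 0.610). The interval leaves small differences in this gene undecided.

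Tnf (21926) encodes the cytokine that antibodies against TNF neutralise in inflammatory bowel disease. It was at 1.02, 0.82 and 6.33 FPKM in BBR mice 1, 2 and 3 and at 23.02, 14.90 and 33.38 FPKM in SASP mice 1, 2 and 3. All BBR mice were below all SASP mice, and BBR mouse 3 was 6.88-fold above the mean of the other BBR mice. At the estimated depth the lowest value corresponds to about 22.1 reads and the highest to 917. Its log2 fold change was -2.98 (SE 0.56, 95% interval -4.29 to -1.66, limma adjusted p = 0.0268), on the log2(FPKM + 1) scale, which understates the change of low values. Of all tested genes 0.348% fell by as much or more. Without BBR mouse 3 the change was -3.62 (-4.36 to -2.88, adjusted p = 0.00164), and the SASP mean was 25.8 times the mean of BBR mice 1 and 2. Without BBR mouse 1, BBR mouse 2, SASP mouse 1 or SASP mouse 3 the change was -2.96 to -2.62 and the call was lost (adjusted p = 0.0730 to 0.108), as it was with no filter on low values (adjusted p = 0.0509).

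Tnf was also lower in relation to Nfkbia, which TNF induces through NF-kB. Tnf over Nfkbia was 0.0217, 0.0216 and 0.0735 in the BBR and 0.304, 0.272 and 0.467 in the SASP mice, a log2 difference of -3.37 (exact permutation p = 0.10, the smallest possible, and 0.20 adjusted over 6 ratios). The groups did not overlap, and without BBR mouse 3 the log2 difference was -3.96.

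**Figure D3:**
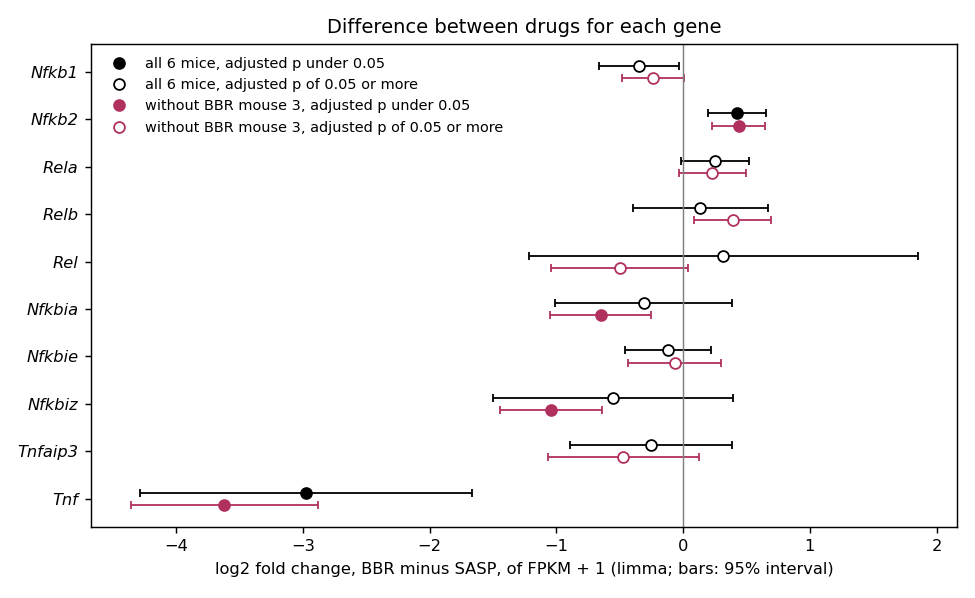
Log2 fold change of FPKM + 1, BBR minus SASP (horizontal axis), for each of the 10 genes with its 95% interval from limma, with all 6 mice (black) and without BBR mouse 3 (red), filled where the adjusted p is under 0.05. Tnf lies at -2.98 and Nfkb2 at 0.42 with all mice, and without BBR mouse 3 Nfkbia and Nfkbiz are also filled, below 0.

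Without BBR mouse 3, 4 of the 10 genes passed the test, Nfkb2 higher and Nfkbia, Nfkbiz and Tnf lower in the BBR mice, beside 33.6% of all tested genes (22.2% higher and 11.3% lower). The values of BBR mice 1 and 2 lay wholly above the SASP values for Nfkb2, Rela and Relb and wholly below them for Nfkb1, Rel, Nfkbia, Nfkbiz and Tnf. That is 8 of the 10 genes, beside 65.1% of all tested genes (44.0% above and 21.1% below). In BBR mouse 3, Rel, Nfkbia, Nfkbiz and Tnf were more than 2-fold above the mean of the other BBR mice (FPKM + 1). That is 4 of 10 genes, and 2.47% of all tested genes were raised as much as Nfkbia (2.01-fold) or more. For Rel the excess was 5.50-fold on this scale, and 0.381% of tested genes were raised as much or more. Nfkb1 and Relb went the other way, with BBR mouse 3 the lowest of all 6 mice in both.

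By their mean over all mice, the order was Nfkbia, Nfkbiz, Tnfaip3, Relb, Nfkb1, Rela, Nfkb2, Tnf, Rel and Nfkbie. Among neighbours in this order, Nfkbia was above Nfkbiz, Rela above Nfkb2 and Rel above Nfkbie in 6 of 6 mice, although only the ranges of Rel and Nfkbie did not overlap. Nfkbiz exceeded Tnfaip3 in 2 mice only, and these neighbours are not separated by their spread. Tnf was below Nfkb2 in all BBR mice and above it in all SASP mice, and it was below Rel in all BBR and above Rel in all SASP mice. FPKM are scaled to transcript length, but this does not correct for reads from an overlapping gene, such as Psd for Nfkb2. The order of close neighbours is therefore approximate.

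Leukocyte markers are given beside Tnf, which immune cells produce. Summed over 8 pan-leukocyte markers, all above 0 in every mouse, their level was 32.1, 44.7 and 27.3 FPKM in the BBR and 83.4, 46.4 and 64.8 FPKM in the SASP mice. The sums did not overlap between the groups, the fitted change was below 0 for all 8, and 0 of 8 passed in limma. At an unadjusted p under 0.05, 5 of 8 passed, beside 31.8% of all tested genes. The sum of 10 macrophage markers, all above 0 in every mouse, was 119 to 153 FPKM in the BBR and 219 to 247 FPKM in the SASP mice. Lyz2 and Cd14 made up 49.3% and 31.7% of it, and Cd14 (log2 fold change -1.85, limma adjusted p = 0.00891) and Fcgr1 (-0.73, adjusted p = 0.0281) were the 2 of 9 tested that were lower, with 0 higher. The fitted change was above 0 for 4 of the 9, the median was -0.14, and Mrc1, a marker of resident macrophages, was at 2.77, 3.08 and 2.63 FPKM in the BBR mice and at most 2.14 FPKM in the SASP mice, so higher in all BBR mice. The median was -0.02 without BBR mouse 3. Granulocyte markers without Ly6g, which made up 89.8% to 98.0% of the full sum, and without Lcn2, which epithelium also expresses, summed to 2.19, 1.89 and 15.4 FPKM in the BBR and 28.3, 31.1 and 36.8 FPKM in the SASP mice. With both included, the 9 markers summed to 194 to 573 FPKM in the BBR and 366 to 542 FPKM in the SASP mice. S100a8, an abundant granulocyte gene, was listed at 0 in BBR mice 1 and 2. It was the 1 of 6 tested that was lower, with 0 higher (5 lower without BBR mouse 3). Of all tested genes 5.04% were lower, or 11.3% without BBR mouse 3. Mpo, Retnlg and Mmp8 were at 0 in some mice. In bulk tissue, fewer cells of a type and less RNA per cell cannot be told apart.

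Divided by the pan-leukocyte sum, Tnf was 0.0318, 0.0183 and 0.232 in the BBR and 0.276, 0.321 and 0.515 in the SASP mice, a log2 difference of -2.80. Divided by the macrophage sum, the log2 difference was -2.91. Divided by the granulocyte sum without Ly6g and Lcn2 it was smaller, at -0.70. This ratio was 0.466, 0.434 and 0.411 in the BBR and 0.814, 0.480 and 0.907 in the SASP mice. By their means over all 6 mice, S100a8 and S100a9 made up 59.2% and 26.1% of that sum. In BBR mice 1 and 2, however, S100a8 was at 0 and S100a9 at 0.11 FPKM, and Cxcr2 (1.36 and 0.89 FPKM) and Csf3r (0.60 and 0.58 FPKM) were the largest terms. The sum thus differs in make-up between mice and is low in these 2. Cxcr2 overlapped between the groups (0.89 to 1.80 FPKM in BBR and 0.85 to 1.34 FPKM in SASP mice). Tnf over the full granulocyte sum was not computed. None of these 3 comparisons overlapped between the groups, and each had an exact permutation p of 0.10. With the smooth muscle or the pan-leukocyte score as a covariate, which leaves fewer degrees of freedom, Tnf changed by -3.68 (limma adjusted p = 0.152) and -3.45 (adjusted p = 0.294), beside 0.157% and 0.0994% of tested genes that passed. Both scores largely follow the drug, so these fits cannot separate them from it. The part of cell make-up in the Tnf difference was not tested.

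T cell, stromal and endothelial markers were checked in the same way. Of all tested genes 3.82% were higher and 5.04% lower in BBR mice, or 22.2% and 11.3% without BBR mouse 3. Of the T cell list 8 of 9 genes were in the table and 2 were tested, with 0 past the threshold in limma (0 at an unadjusted p under 0.05) and sums of 4.58 to 6.73 FPKM in the BBR and 3.47 to 8.08 FPKM in the SASP mice. Stromal markers were higher in BBR mice for 4 of 9 (8 without BBR mouse 3), with sums of 313 to 424 and 152 to 248 FPKM, and endothelial markers for 1 of 6 (3 without BBR mouse 3), with sums of 17.0 to 31.6 and 9.12 to 12.8 FPKM. Smooth muscle markers passed the test in limma for 0 of 12, and at an unadjusted p under 0.05 for 10 of 12, beside 31.8% of all tested genes. Of 12 epithelial markers 2 were higher and 1 was lower (2 and 3 without BBR mouse 3). Their part in the differences of the NF-kB genes was not tested.

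The rest of the pathway was read from 6 further lists, which hold 115 genes, of which 93 were tested. Of these 4 were higher and 11 lower in BBR mice at an adjusted p under 0.05, 16.1% beside 8.86% of all tested genes, and their median log2 fold change was -0.13 beside 0.10. Without BBR mouse 3, 11 were higher and 29 lower, beside 22.2% higher and 11.3% lower of all tested genes. Without any other single mouse 4 to 10 genes passed. These were 5 without BBR mouse 1 (beside 1.10% of all tested genes), 5 without BBR mouse 2 (3.11%), 6 without SASP mouse 1 (1.05%), 10 without SASP mouse 2 (4.32%) and 4 without SASP mouse 3 (0.795%). Tnfsf10, Cxcl10, Ccnd1 and Icam1 passed whichever mouse was left out, Fas in 5 of the 6 such fits, all but that without SASP mouse 3, and the other 10 genes only without BBR mouse 3 or, for some, also without 1 SASP mouse.

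Of 11 other TNF family ligands, 5 were tested and 1 was lower, beside 5.04% of all tested genes, with a median of -0.58. Tnfsf10, which encodes the death ligand TRAIL, was at 3.55, 2.36 and 6.35 FPKM in the BBR and 106.75, 61.85 and 92.61 FPKM in the SASP mice. On the log2 scale the change was -4.15 (limma adjusted p = 0.00184), and the groups were far apart. Tnfsf13b, the B cell survival factor BAFF, changed by -0.58 (adjusted p = 0.0702) and Tnfsf12, the ligand TWEAK, by 0.69 (adjusted p = 0.0831), and neither passed.

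Of 13 genes for TNF receptors, receptors of lymphotoxin or CD40 ligand and shedding factors, 10 were tested. Of these 2 were lower and 2 higher, beside 5.04% and 3.82% of all tested genes, and the median was -0.03. Tnfrsf1a, the broadly expressed TNF receptor, was at 29.62, 36.39 and 38.75 FPKM in the BBR and 69.10, 55.60 and 79.99 FPKM in the SASP mice (log2 fold change -0.94, limma adjusted p = 0.0242). Fas, a death receptor, was at 9.48 to 10.39 FPKM in the BBR and 21.32 to 31.93 FPKM in the SASP mice (-1.38, adjusted p = 0.00891). For both the groups were clearly separated. Tnfrsf12a, the receptor of TWEAK, was higher in BBR mice, at 11.24 to 18.98 against 4.52 to 6.52 FPKM (1.20, adjusted p = 0.0260). Rhbdf1, which helps the TNF-shedding protease to mature and falls outside the rule for named genes, was the other that was higher (1.04, adjusted p = 0.0279).

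Upstream of the subunits, few genes passed. Of the 16 genes of the IKK complex and the kinases above it, all were tested and 0 passed in limma, with a median of -0.06. At an unadjusted p under 0.05, 3 of 16 passed, beside 31.8% of all tested genes. Those with the smallest p were Tbk1 (-0.41, adjusted p = 0.0534), an IKK-related kinase, and Ripk1 (-0.28, adjusted p = 0.127) and Ripk2 (-0.52, adjusted p = 0.136), which relay signals from TNF and NOD receptors. Their groups did not overlap. Of 20 adaptors and ubiquitin ligases 18 were tested and 1 was lower, beside 5.04% of all tested genes, with a median of -0.05. Myd88, the adaptor of Toll-like and interleukin receptors, was at 21.03, 20.03 and 24.96 FPKM in the BBR and 35.86, 30.39 and 39.11 FPKM in the SASP mice (-0.65, adjusted p = 0.0362). Ube2n (-0.21, adjusted p = 0.155), a ubiquitin-conjugating enzyme, and Bcl10 (0.27, adjusted p = 0.158), a scaffold protein, did not pass.

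Of the 17 other IkB family and feedback genes, all tested, 1 was higher and 1 lower, and the median was -0.12. Of all tested genes 3.82% were higher and 5.04% lower. Tax1bp1, a partner of A20, was at 220.47, 216.27 and 194.09 FPKM in the BBR and 344.03, 312.70 and 357.39 FPKM in the SASP mice (-0.68, limma adjusted p = 0.0205). Rnf11, another protein of the A20 complex, was higher, at 38.99 to 45.47 against 28.71 to 32.01 FPKM (0.46, adjusted p = 0.0421). These partners of the same enzyme thus moved in opposite directions, each without overlap between the groups. Cyld, a deubiquitinase that restrains NF-kB, changed by -0.47 (adjusted p = 0.0596) and did not pass.

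Known target genes held 7 of these 15 differences. Of 38 targets 27 were tested, 6 were lower and 1 was higher in BBR mice, with a median of -0.31. Of all tested genes 5.04% were lower and 3.82% higher. Cxcl10, a chemokine that interferon also induces, was at 2.01, 1.10 and 1.72 FPKM in the BBR and 38.96, 23.67 and 33.40 FPKM in the SASP mice (-3.65, limma adjusted p = 0.000723). Ccnd1, the gene of cyclin D1, was at 8.65 to 12.23 against 34.85 to 41.73 FPKM (-1.80, adjusted p = 0.00245), and Icam1, a leukocyte adhesion molecule, at 1.80 to 2.25 against 7.23 to 9.24 FPKM (-1.58, adjusted p = 0.00341). BBR mouse 3 lay close to the other BBR mice in each. The other genes that were lower were Tnfaip2 (-1.43), Myc (-0.87) and Bcl2a1b (-0.81), which has near-identical copies that make its value uncertain, and Ccl5, a T cell chemokine, was higher (1.23, adjusted p = 0.0407). These 4 fall outside the rule for named genes.

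A further group of targets and other genes of the 6 lists was high in BBR mouse 3 only among BBR mice. In that mouse 8 of 27 tested targets were more than 2-fold above the mean of BBR mice 1 and 2 (FPKM + 1). So were 12 of the 93 tested genes of the 6 lists. On this scale 2.47% of all tested genes were raised 2.01-fold or more. The examples that follow were chosen after their values were seen. Cxcl5, a neutrophil chemokine, was at 0.63, 0.46 and 53.74 FPKM in BBR mice 1, 2 and 3 and at 5.86 to 12.19 FPKM in the SASP mice. Nos2, the inducible nitric oxide synthase, was at 0.80, 0.29 and 29.25 FPKM in the BBR and 52.67 to 110.07 FPKM in the SASP mice, and it did not pass the test (-4.33, limma adjusted p = 0.0587). Tnfrsf1b, the inducible TNF receptor, was at 5.25, 4.82 and 42.27 FPKM in the BBR and 16.13 to 20.33 FPKM in the SASP mice. BBR mouse 3 exceeded every SASP mouse in Cxcl5 and Tnfrsf1b and stayed below every SASP mouse in Nos2, as it did in Tnf.

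**Figure D4:**
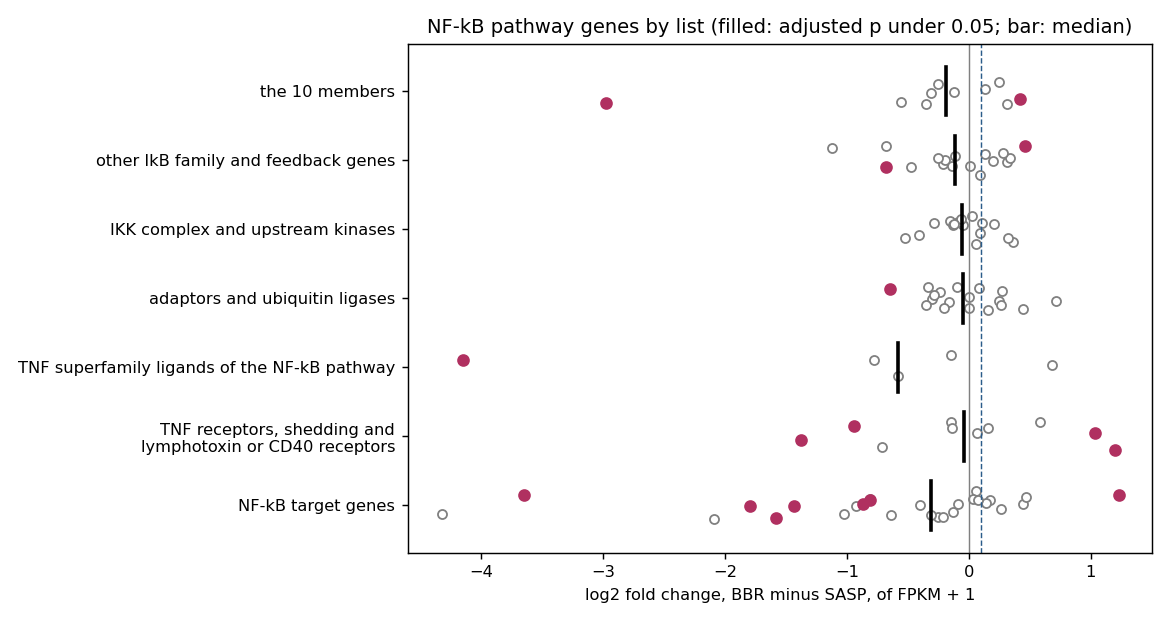
Log2 fold change of FPKM + 1, BBR minus SASP (horizontal axis), of each tested gene in the 10-gene set and in the 6 further lists (rows), filled where the limma adjusted p is under 0.05, with a black bar at the median of each list and a dashed line at the median of all tested genes (0.10). Filled points below 0 lie mainly among targets (6), and the IKK list has none.

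For the 3 genes of the set with the smallest p, the genes with the closest pattern over the 6 mice were sought by the root mean square (RMS) difference of log2(FPKM + 1) values, each centred on its own mean. Closest to Tnf were Socs1 (RMS difference 0.335), Xdh (0.348) and Zbp1 (0.351), beside a median of 1.73 over all tested genes. Socs1, a suppressor of cytokine signalling, was at 2.49, 1.71 and 5.97 FPKM in the BBR and 40.14, 19.53 and 34.45 FPKM in the SASP mice. Like Tnf, all 3 were highest in BBR mouse 3 among BBR mice and lowest in SASP mouse 2 among SASP mice. Closest to Nfkb2 were Inava (0.0388), Mtfr1 (0.0414) and Glmp (0.0445), beside a median of 0.270. Closest to Nfkb1 were Mrps18a (0.0286), Pmpcb (0.0391) and Alkbh3 (0.0421), beside a median of 0.314, and all 3 were lowest in BBR mouse 3. With 6 mice in 2 groups, any gene that differs between the drugs to a like degree comes out close.

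**Figure D5:**
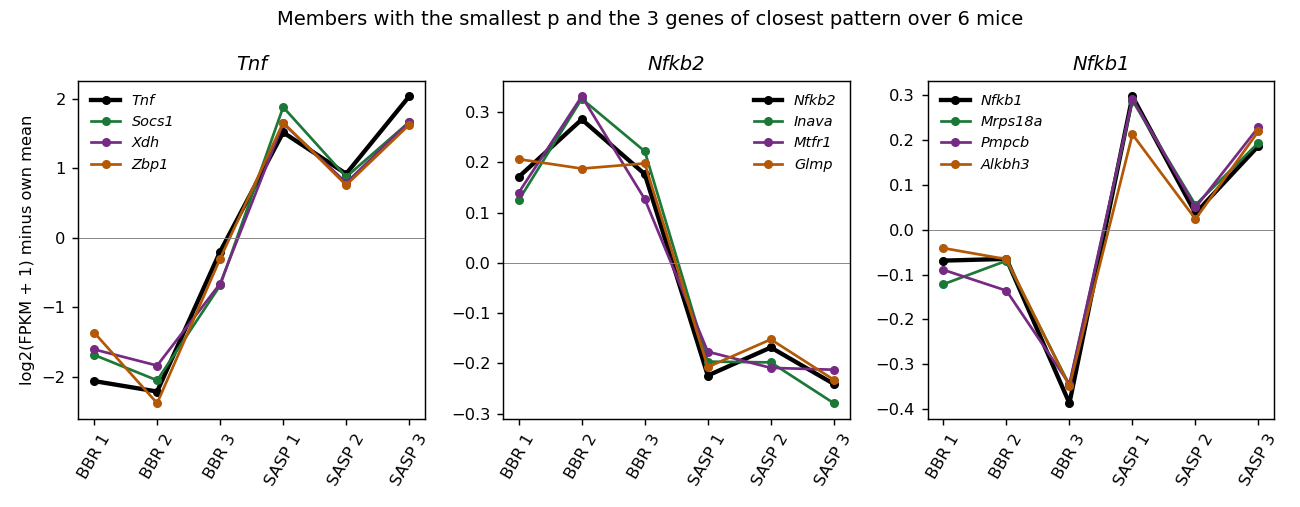
Log2(FPKM + 1) minus the mean of each gene over the 6 mice (vertical axis) for Tnf, Nfkb2 and Nfkb1 (black) and the 3 genes of closest pattern to each (colours), with lines joining the mice only to guide the eye. Socs1, Xdh and Zbp1 follow Tnf with a rise in BBR mouse 3 and a dip in SASP mouse 2.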

How the data were processed

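Colorectal RNA of 6 colitis mice was sequenced, 3 receiving BBR and 3 receiving SASP. The deposited table holds FPKM values, which the authors calculated per gene with RSEM 1.2.12 after alignment with Bowtie2 2.2.5, per the submitters' processing notes, which name genome build mm9. Values are rounded to 2 decimals. The study's methods describe depletion of ribosomal RNA, filtering with SOAPnuke and single-end reads from DNA nanoballs, whereas the labels name an Illumina kit. The annotation and the strand setting are not given in the sources used here. RSEM divides reads shared by similar genes, so values of close paralogs, such as Bcl2a1b, are uncertain. Read totals were not analysed here.

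Groups came from the treatment label. Replicate numbers follow accession order and pair no mice. Separate mice are the replicates, and no pair of libraries was identical in more than 0.389% of genes.

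Count models were not used, since FPKM are normalised values. Genes of at least 1 FPKM in at least 3 mice (12072) were compared as log2(FPKM + 1) with limma 3.58.1 (R 4.3.3), with a mean-variance trend, two-sided, with Benjamini-Hochberg adjustment over all tested genes and a threshold of 0.05. Ratios were compared with exact permutation tests (scipy 1.17.1). The limma step was tested on simulated data.

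The 10 members and all gene lists were chosen with earlier results of these data known. Named genes were the members, up to 3 genes with the smallest p in each further list, and the 3 closest patterns of the 3 members with the smallest p. Depth was estimated from genes with short transcripts above 0 in only 1 library, each value assumed to be a single read. Alternatives were pseudocounts of 0.1 and 0.01, no filter, a mean of at least 5 FPKM, median-ratio, quantile and TPM scaling, no trend, array weights, marker scores as covariates, other thresholds and leaving out each mouse. Division of Tnf by marker sums was added after seeing the data. Gene coordinates on mm9 were not used, and promoter windows come from GRCm38.p6. The result of 1 marker list is not reported here.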

Additional observations from a re-analysis of the deposited data

How the results depend on the processing

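No paired analysis was possible because the replicate numbers follow accession order and pair no mice. Tnf stayed below 0 in all 17 alternatives and passed the test in 10. It was -2.98 (adjusted p = 0.0509) with no filter, -3.68 with the smooth muscle score and -3.45 with the pan-leukocyte score as a covariate, none of which passed, and -3.62 to -2.62 with 1 mouse left out, where it passed only without BBR mouse 3 or SASP mouse 2. Nfkb2 stayed above 0 in all 17 and passed in 7. It did not pass with no filter (0.42), median-ratio scaling (0.30), no variance trend (0.42) or the smooth muscle (0.41) or pan-leukocyte (0.44) score, and was 0.38 to 0.44 with 1 mouse left out. The 2 calls among the members became 0 with no filter, with either score and at an adjusted p under 0.01, 1 with no trend and 7 with array weights. These weights were highest in BBR mouse 1 (5.32) and SASP mouse 3 (4.85) and lowest in BBR mouse 3 (0.129). The calls became 0 to 4 with 1 mouse left out (0 without BBR mouse 1, BBR mouse 2, SASP mouse 1 or SASP mouse 3, 1 without SASP mouse 2, 4 without BBR mouse 3). With median-ratio scaling there were also 2, but Nfkb1 and Tnf. The 15 calls in the 6 further lists became 56 with array weights, 1 with the smooth muscle and 0 with the pan-leukocyte score, 30 at an unadjusted p of at most 0.05, 5 at an adjusted p under 0.01 and 4 to 40 with 1 mouse left out.

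Over all genes, 1069 calls (43.1% of them higher) became 608 with no filter, 1683 with median-ratio scaling (29.6% higher), 1737 with quantile normalization, 7126 with array weights (65.1% higher), 19 with the smooth muscle and 12 with the pan-leukocyte score, 3837 at an unadjusted p of at most 0.05, 109 at an adjusted p under 0.01, and 96 (without SASP mouse 3) to 4051 (without BBR mouse 3) with 1 mouse left out.

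Signs turned for Rel with array weights (-0.26), the smooth muscle (-0.93) and pan-leukocyte (-0.99) score and without BBR mouse 3 (-0.50), for Relb without BBR mouse 2 (-0.00425), for Nfkbie with the smooth muscle (0.10) and pan-leukocyte (0.13) score, for Relb over Rela without BBR mouse 3 (0.16) or SASP mouse 1 (0.000468), and for Rel over Rela without BBR mouse 3 (-0.91) or SASP mouse 3 (-0.21). The cause was not tested. With 1 mouse left out, the ranges were -0.50 to 0.74 for Rel, -0.00425 to 0.39 for Relb, -0.31 to 0.16 for Relb over Rela and -0.91 to 0.56 for Rel over Rela. Nfkbie had no value with a mean of at least 5 FPKM. With 3 mice a group, only large or tight differences could pass, and FPKM carry no exact depth.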
